A study of Mus musculus with 16 samples.

Results

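The Hippo-TEAD and trophectoderm regulators described here are 9 mouse genes: the coactivators Yap1 and Wwtr1, the transcription factors Tead1, Tead2 and Tead4, the kinases Lats1 and Lats2, and the lineage regulators Gata3 and Cdx2. They were chosen by name, and every probe set that the platform annotation assigns to 1 of these symbols alone was taken. With control probe sets set aside, this gave 21 of 45037, of which 19 passed the filter on low values and were tested among 31953. A probe set is a group of short oligonucleotides on the array whose signals are combined into 1 value for a transcript. Where a gene has several, they are lettered from A in order of falling mean log2 value over the 16 arrays. Mouse two-cell embryos were measured on 16 one-colour arrays, with 4 arrays in each of 4 groups. BBB embryos had a maternal pronucleus, a paternal pronucleus and an ooplasm of strain B6. BCB embryos had a maternal pronucleus of strain C3H beside a paternal pronucleus and ooplasm of B6, so that all groups shared the B6 ooplasm and paternal pronucleus. Both kinds were measured either untreated or after α-amanitin, which the labels spell α-amantin. The labels give neither its dose nor its duration, nor the number of embryos on an array or the origin of the replicates, so p-values measure the spread between these arrays alone, which may be technical.

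The proteins of Yap1 and Wwtr1, known as YAP and TAZ, are coactivators that do not bind DNA by themselves and act through the TEAD transcription factors. The kinases LATS1 and LATS2, the last step of the Hippo cascade, phosphorylate both coactivators and hold them in the cytoplasm. In the later mouse preimplantation embryo, YAP enters the nucleus of outer cells and, with TEAD4, turns on Cdx2 and Gata3, which specify trophectoderm, the outer epithelium from which the placenta forms. α-Amanitin blocks RNA polymerase II and with it the synthesis of new mRNA, and the two-cell stage is the time at which the mouse embryo begins broad transcription of its own genome.

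The promoter windows of Yap1, Wwtr1 and Lats2 from RefSeq are shown because these members had a probe set called with amanitin on the deposited scale and because the windows hold GGAATG, the core letters of the element that TEAD proteins bind. A window runs from 250 bases before to 50 bases after a gene's annotated start in build GRCm38.p6, both strands were searched, and GGAATG or its reverse complement CATTCC occurred in 14.7% of the 32851 windows of this length. Windows were found for 7 of the 9 genes (9 windows), and 4 windows of 3 genes held the letters. Both Wwtr1 windows overlap and hold the same match. The windows of Tead2, Lats1, Gata3 and Cdx2 and another window of Lats2 held none. A match describes these letters only, and nothing was measured of any protein bound there. Each sequence reads 5′ to 3′ on the strand of its gene, the minus strand in all 3 cases, with the matched letters in capitals; they begin at base 110 of the Yap1 window, base 115 of the Wwtr1 window and base 255 of the Lats2 window, which lies after the annotated start. The Yap1 window is chr9:8004547-8004846, the Wwtr1 window chr3:57575861-57576160 and the Lats2 window chr14:57746074-57746373.
Yap1: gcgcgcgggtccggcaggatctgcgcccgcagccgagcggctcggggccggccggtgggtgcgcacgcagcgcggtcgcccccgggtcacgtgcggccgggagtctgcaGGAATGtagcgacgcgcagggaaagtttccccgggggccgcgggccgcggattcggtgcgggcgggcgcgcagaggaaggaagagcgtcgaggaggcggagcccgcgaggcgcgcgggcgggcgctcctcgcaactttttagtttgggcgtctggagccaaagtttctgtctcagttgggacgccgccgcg
Wwtr1: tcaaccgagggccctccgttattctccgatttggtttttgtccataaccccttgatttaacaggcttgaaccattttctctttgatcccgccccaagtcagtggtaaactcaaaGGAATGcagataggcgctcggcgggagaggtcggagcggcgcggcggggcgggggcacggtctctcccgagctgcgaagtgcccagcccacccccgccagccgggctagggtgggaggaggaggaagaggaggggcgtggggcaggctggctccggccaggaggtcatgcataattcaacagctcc
Lats2: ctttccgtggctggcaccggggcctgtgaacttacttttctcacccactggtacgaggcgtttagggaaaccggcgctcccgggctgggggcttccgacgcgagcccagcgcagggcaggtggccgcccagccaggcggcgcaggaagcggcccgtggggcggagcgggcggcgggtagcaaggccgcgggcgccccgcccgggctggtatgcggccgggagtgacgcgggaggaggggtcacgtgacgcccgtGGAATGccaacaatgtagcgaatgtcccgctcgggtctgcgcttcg

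The deposited values are linear intensities, and their mean without the highest and lowest 2% of probe sets was 150.0 on each of the 16 arrays. Arrays of a group correlated at 0.976 to 0.990 over the tested probe sets, and treated with untreated arrays at 0.764 to 0.815. Genes marking the two-cell stage were present: the summed intensity of the 5 of 7 listed genes with a probe set was 9124 to 10703 on untreated arrays and 184 to 492 on treated ones. The 8 oocyte markers summed to 11701 to 14003 on untreated and 22302 to 25613 on treated arrays. For the 14 of 15 cumulus and granulosa markers with a probe set the range was 2141 to 2764 untreated and 398 to 504 treated. Amhr2, the receptor of anti-Müllerian hormone, made up most of that untreated sum and went from 2086 ± 211 to 58.9 ± 17.3 in BBB (SD, n = 4), whereas of the 10 tested genes of this list 5 rose and 2 fell in BBB and 3 rose and 2 fell in BCB by limma. The 7 spermatid markers summed to 48.2 to 108 untreated and 86.5 to 134 treated. Added control RNA also differed between the states: the 9 hybridization controls were 0.52 (BBB) and 0.80 (BCB) higher on the log2 scale on treated arrays, and the 12 poly-A controls 1.96 and 1.99 higher. The part of these markers and controls in the results below was not tested, and an array of whole embryos cannot tell fewer cells that carry a transcript from less of it in each cell.

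With α-amanitin, Wwtr1, Tead4 and Cdx2 fell in both kinds of embryo. Gata3 and Yap1 A rose in both on the deposited scale, and Lats1 gave opposite answers on its 2 probe sets. The comparison asks which transcripts of the pathway depend on transcription in the embryo. Of the 19 tested probe sets, 5 rose and 8 fell in BBB embryos, by a linear model in limma with p-values adjusted after Benjamini and Hochberg over the 31953 probe sets and a threshold of 0.05. Among all tested probe sets, 34.3% rose and 31.9% fell in that comparison. In BCB embryos 6 rose and 9 fell, against 37.6% and 30.3% of all tested probe sets. The members' shares are near this background and are no result about the 9 genes as a group. The median log2 change of the members was −0.21 in BBB and −0.19 in BCB, where all tested probe sets had medians of 0.09 and 0.16. Changes are on the scale of log2(value + 16), which understates the change of dim probe sets. Both kinds have their own untreated arrays, so the 2 comparisons share none. Their SE and p-values do share an estimate of spread, which the fit pools over all 16 arrays. Members spread in both directions: the 3 Wwtr1 probe sets lay lowest and Gata3 highest of the 19 in each kind.

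**Figure D1:**
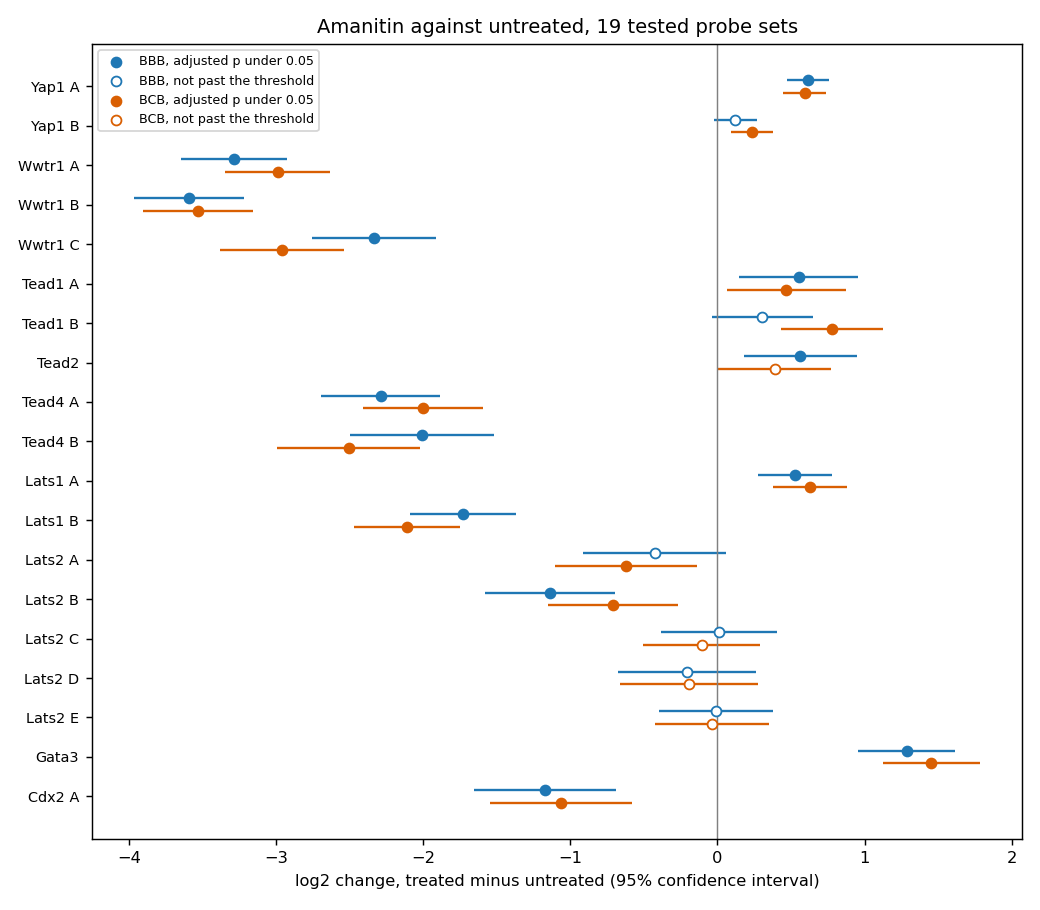
Log2 change with α-amanitin (treated minus untreated, horizontal axis) of the 19 tested probe sets (vertical axis) in BBB and BCB embryos, with 95% confidence intervals; filled points have an adjusted p under 0.05. Wwtr1 lies between −3.59 and −2.34, Tead4 between −2.51 and −2.0, and Gata3 at 1.29 and 1.45.

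Of the coactivators, Wwtr1 lost most of its signal and Yap1 did not. On Wwtr1 A the 4 untreated BBB arrays read 585, 556, 522 and 495 and the 4 treated ones 36.1, 45.3, 30.5 and 54. In BCB embryos the same probe set read 557, 517, 478 and 541 untreated and 71.7, 52.6, 64.8 and 27.3 treated. Every treated array lay far below every untreated one, while the untreated arrays of both kinds overlapped, as did the treated. The log2 change was −3.29 ± 0.17 (SE, n = 4 arrays against 4) in BBB and −2.99 ± 0.17 in BCB, with limma adjusted p-values of 5.34e-14 and 2.98e-13. Wwtr1 B read 442 to 556 in untreated BBB, 401 to 496 in untreated BCB, 18.9 to 31.5 in treated BBB and 9 to 38.2 in treated BCB arrays. Its changes were −3.59 and −3.53. Wwtr1 C was dimmer, at 89.8 to 112 and 106 to 170 untreated and 2.1 to 17.3 and 0.7 to 13.8 treated, with changes of −2.34 and −2.96. All 3 probe sets thus fell in both kinds.

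Yap1 A read 6242, 6275, 7309 and 7366 on the untreated BBB arrays and 9694, 10822, 9543 and 11634 on the treated ones. In BCB embryos it read 7031, 7220.3, 6808 and 6375 untreated and 10742, 9630.4, 10459 and 10552 treated. No treated array overlapped an untreated one, and the log2 changes were 0.62 ± 0.07 in BBB (SE, n = 4 against 4; limma adjusted p = 4.03e-08) and 0.59 ± 0.07 in BCB (adjusted p = 7.62e-08). These values are close to the highest value of any probe set on the arrays, which was 7486 to 9580 untreated and 10844 to 13381 treated. The rise depended on the scaling of the arrays: with arrays scaled to the poly-A controls the changes were −1.34 and −1.40. Under quantile normalization they were −0.0032 and −0.027. That scaling gives equal ranks equal values, and Yap1 A lay at percentile 99.98 or above on every array. Quantile normalization thus left it little room to rise and does not test the rise, though a loss of rank could have shown. Yap1 B read 1629 to 1668 in untreated and 1701 to 1918 in treated BBB arrays, a change of 0.12 ± 0.07 that did not pass the test (limma adjusted p = 0.125). Under quantile normalization it passed in BBB as a fall (−0.16, limma adjusted p = 0.0314). It also passed as a fall when scaled to the hybridization controls (−0.40, 0.00432) and the poly-A controls (−1.82, 5.69e-12). Under median centring it passed as a rise (0.42, 2.90e-05). In BCB embryos it read 1469 to 1662 and 1808 to 1943, a rise of 0.24 ± 0.07 (adjusted p = 0.00448) that was at 0.0030 under quantile normalization and at −0.56 and −1.74 when scaled to the hybridization and poly-A controls. The test of the difference between kinds gave adjusted p = 0.815 for this probe set.

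Among the DNA-binding partners, Tead4 fell, whereas Tead1 and Tead2 had changes above 0 on the deposited scale, of which some passed the test. Tead4, the family member required for trophectoderm in the mouse, has 2 probe sets. Tead4 A read 130, 121, 68.5 and 69.2 on the untreated and 6, 10.9, 4.5 and 4.7 on the treated BBB arrays, and 87.5, 84.6, 82.7 and 96.4 untreated and 13.5, 14.3, 2.3 and 11.5 treated in BCB. Its log2 changes were −2.29 ± 0.20 and −2.0 ± 0.20 (limma adjusted p = 3.12e-10 and 3.37e-09). Tead4 B read 114, 108, 40 and 58.4 in untreated and 0.9 to 13.2 in treated BBB arrays, and 94.5 to 133 and 4.3 to 11.6 in BCB, with changes of −2.01 ± 0.24 and −2.51 ± 0.24. On both probe sets BBB arrays 3 and 4 were the lowest untreated arrays; without these 2 arrays the BBB changes were −2.66 and −2.50. Treated values lay mostly below the 40th percentile of their array, 10.8 to 14.1, the level used as the filter. The sizes of these falls are therefore compressed by the added 16.

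Tead1, a broadly expressed member of the family, rose on both probe sets in BCB and on 1 in BBB. Tead1 A read 36.1, 51.5, 76.6 and 61.2 in untreated and 74.5, 98.5, 62.4 and 127 in treated BBB arrays, and 73.6, 48.9, 64.2 and 83 against 80.3, 109, 103.5 and 102 in BCB. The groups overlapped in both kinds. The changes of 0.55 ± 0.20 (limma adjusted p = 0.0159) and 0.47 ± 0.20 (0.0375) passed the threshold, but the first was lost without untreated BBB array 1 (adjusted p = 0.0815) or treated BBB array 4 (0.0780), and the second without any of untreated BCB arrays 2 and 3 and treated BCB arrays 2, 3 and 4 (0.0663 to 0.138). Tead1 B read 24.5 to 45.2 and 35.2 to 64.2 in BBB, a change of 0.31 ± 0.17 (adjusted p = 0.111). It read 34.3, 34.8, 38.6 and 43.1 untreated and 84, 82.2, 61 and 78.6 treated in BCB, where the groups did not overlap and it rose by 0.78 ± 0.17 (limma adjusted p = 0.000248). Tead2, which is known from early mouse development, read 61.1, 60.8, 61.8 and 59.4 untreated and 68.9, 116, 94.9 and 117 treated in BBB, a rise of 0.56 ± 0.19 (limma adjusted p = 0.0103). In BCB it read 78.3, 61.6, 53.5 and 42.2 untreated and 101, 52.1, 98.6 and 79.2 treated, with overlap and a change of 0.39 ± 0.19 (adjusted p = 0.0680). Scaled to the poly-A controls, the changes in BBB and BCB were −1.04 and −1.18 for Tead1 A, −1.12 and −0.73 for Tead1 B, and −1.06 and −1.21 for Tead2.

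**Figure D2:**
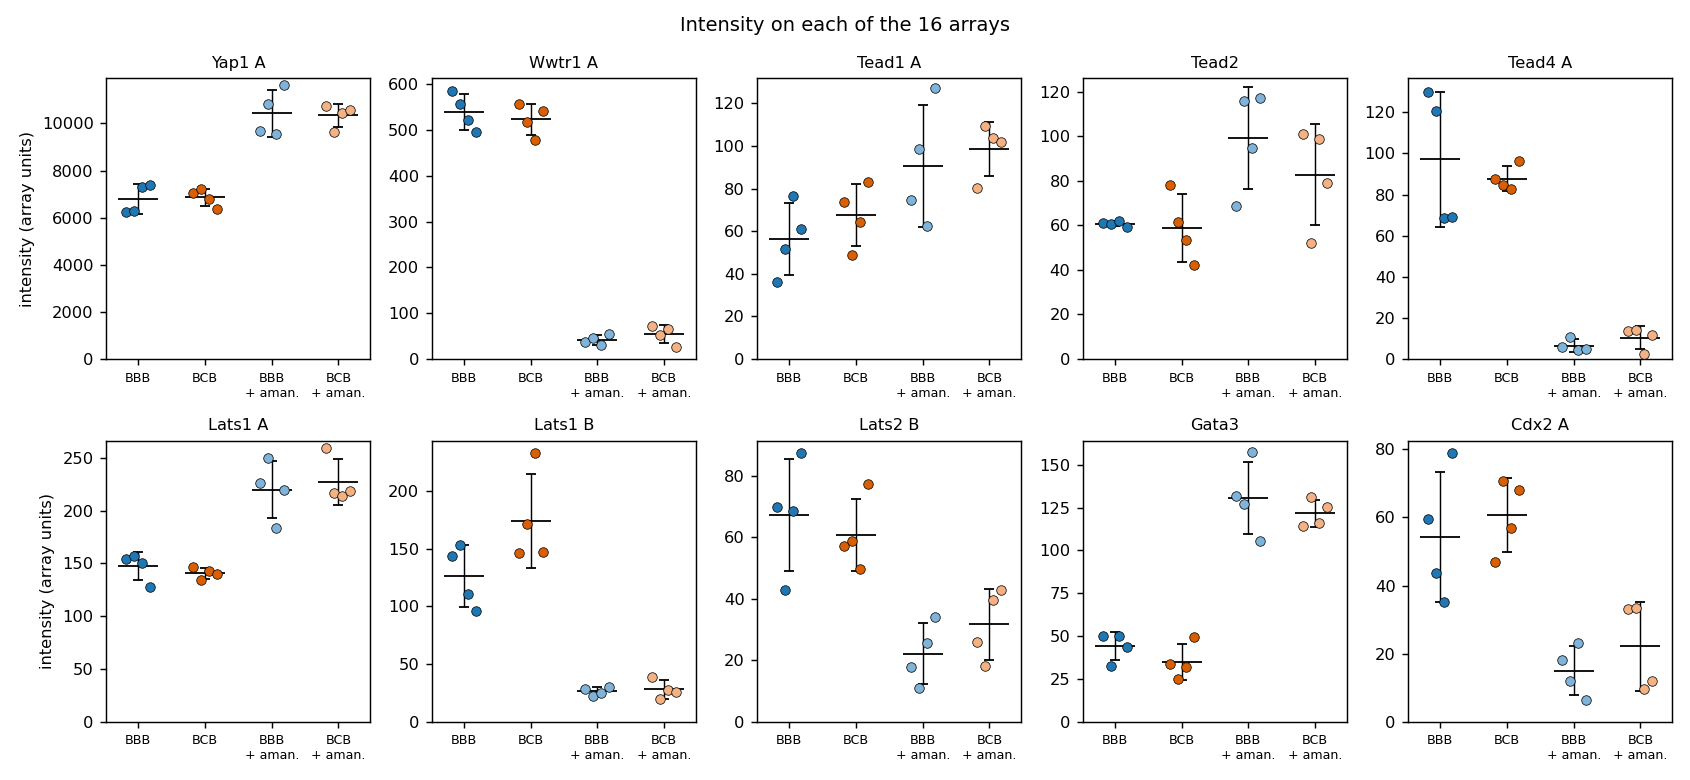
Intensity (linear, vertical axis from 0) on each of the 16 arrays for 10 probe sets of the 9 genes; points are arrays, the long line is the group mean and the bar its SD (n = 4). Wwtr1, Tead4, Lats1 B and Cdx2 are lower on every treated array than on every untreated one, and Gata3 and Lats1 A higher.

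The kinase Lats1 was read by 2 probe sets that moved in opposite directions. On Lats1 A the BBB arrays read 154, 157, 150.5 and 128 untreated and 226, 250, 184 and 220 treated, and the BCB arrays 146, 134, 142.5 and 140 untreated and 259, 217, 214 and 218 treated. This was a rise of 0.53 ± 0.12 in BBB (limma adjusted p = 0.000477) and 0.63 ± 0.12 in BCB (6.74e-05). On Lats1 B the BBB arrays read 144, 153, 111 and 95.9 untreated and 28.6, 22.1, 24.8 and 29.8 treated, and the BCB arrays 146, 171, 233 and 147 untreated and 38.9, 19.9, 27.6 and 25.5 treated. This was a fall of −1.73 ± 0.17 and −2.11 ± 0.17 (limma adjusted p = 5.02e-09 and 1.61e-10). Neither probe set had a treated array within the range of its untreated arrays. Which part of the gene or which isoform each one reads was not tested, so Lats1 has no single direction here. The rise of the first was at 0.047 in BBB and −0.10 in BCB when arrays were scaled to the hybridization controls, and at −1.27 and −1.19 when scaled to the poly-A controls, whereas the second was below 0 under these scalings too.

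Lats2, the sister kinase, has 6 probe sets, 5 of them tested, and none was called higher. Lats2 B read 69.9, 43, 68.7 and 87.5 in untreated and 17.9, 10.9, 25.7 and 34.1 in treated BBB arrays, and 57.2, 58.9, 49.6 and 77.4 against 26.1, 18, 39.5 and 43 in BCB. The groups were apart in each kind, with falls of −1.14 ± 0.21 and −0.71 ± 0.21 (limma adjusted p = 5.48e-05 and 0.00531). Lats2 A read 32.9 to 69.7 and 18.8 to 42 in BBB, and 48.6 to 84.3 and 16.4 to 55.3 in BCB, with overlap in both. Its change of −0.43 ± 0.23 in BBB did not pass the test (limma adjusted p = 0.113), and that of −0.62 ± 0.23 in BCB did (0.0228). The BCB call was lost without untreated BCB array 1 or 4 or treated BCB array 3 (0.0633 to 0.120) and under quantile normalization or median centring. In BBB the probe set passed without untreated array 4 (0.0451). Lats2 C, D and E had changes between −0.21 and 0.01 and passed in neither kind, with values of 18.7 to 50.3, 4.2 to 25.7 and 4.5 to 21 over the 16 arrays. The untested Lats2 F read 0.4 to 7, and 1 further probe set that the annotation assigns to both Xpo4 and Lats2 was left out.

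The trophectoderm regulators moved apart: Gata3 rose on the deposited scale and Cdx2 fell. Gata3, a zinc-finger factor that acts in trophectoderm beside Cdx2, read 50.2, 32.6, 50 and 43.5 on untreated and 132, 127, 157 and 106 on treated BBB arrays. In BCB embryos it read 33.7, 24.8, 31.7 and 49.4 untreated and 114, 131, 116 and 125 treated. The lowest treated array of either kind, at 106, was above the highest untreated one, at 50.2. The rise was 1.29 ± 0.16 in BBB and 1.45 ± 0.16 in BCB on the log2 scale (SE, n = 4 against 4; limma adjusted p = 1.67e-07 and 2.29e-08), or 2.44-fold and 2.74-fold. Cdx2 encodes the homeobox factor that maintains trophectoderm. Cdx2 A read 59.4, 43.8, 35.1 and 78.8 untreated and 18.2, 12.1, 23 and 6.5 treated in BBB, and 47, 70.6, 56.9 and 68.1 untreated and 33.2, 33.4, 9.7 and 12.1 treated in BCB. Its treated arrays lay below its untreated ones in each kind, with changes of −1.17 ± 0.23 and −1.06 ± 0.23 (limma adjusted p = 0.000109 and 0.000326). A second probe set, Cdx2 B, was not tested and read 0.8 to 9.1.

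These changes were checked for scale in 2 ways. The first was to rescale all arrays, which moved the median change of all tested probe sets in BBB and BCB from 0.09 and 0.16 to 0.20 and 0.21 (quantile normalization), 0.39 and 0.38 (median centring), −0.22 and −0.33 (hybridization controls) and −1.15 and −1.11 (poly-A controls). Relative to that median, Gata3 stood at 0.83 to 1.49 over the 5 scalings and both kinds. Wwtr1 A stood at −3.74 to −2.98, Tead4 A at −2.38 to −2.03, Lats1 B at −2.45 to −1.65 and Cdx2 at −1.28 to −1.13. Yap1 A crossed the median, from −0.29 to 0.53, and so did Lats1 A (−0.12 to 0.73), Tead1 A (−0.08 to 0.68) and Tead2 (−0.10 to 0.71). In counts, the split of 5 risen and 8 fallen in BBB became 5 and 9, 7 and 8, 1 and 10, and 0 and 18 under these scalings in the same order. For BCB the split of 6 and 9 became 5 and 8, 7 and 8, 1 and 12, and 0 and 18. Of all 31953 tested probe sets these scalings called 21826, 23751, 19613 and 26902 in BBB, of which 12710, 15715, 6304 and 228 rose. In BCB they called 21901, 23737, 19200 and 26499, of which 12855, 15557, 4532 and 211 rose. The members' counts under these scalings are no result about the 9 genes as a group. Gata3 was the member still called higher when arrays were scaled to the hybridization controls (0.86 and 0.83), and scaled to the poly-A controls it was at −0.32 and −0.12.

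**Figure D3:**
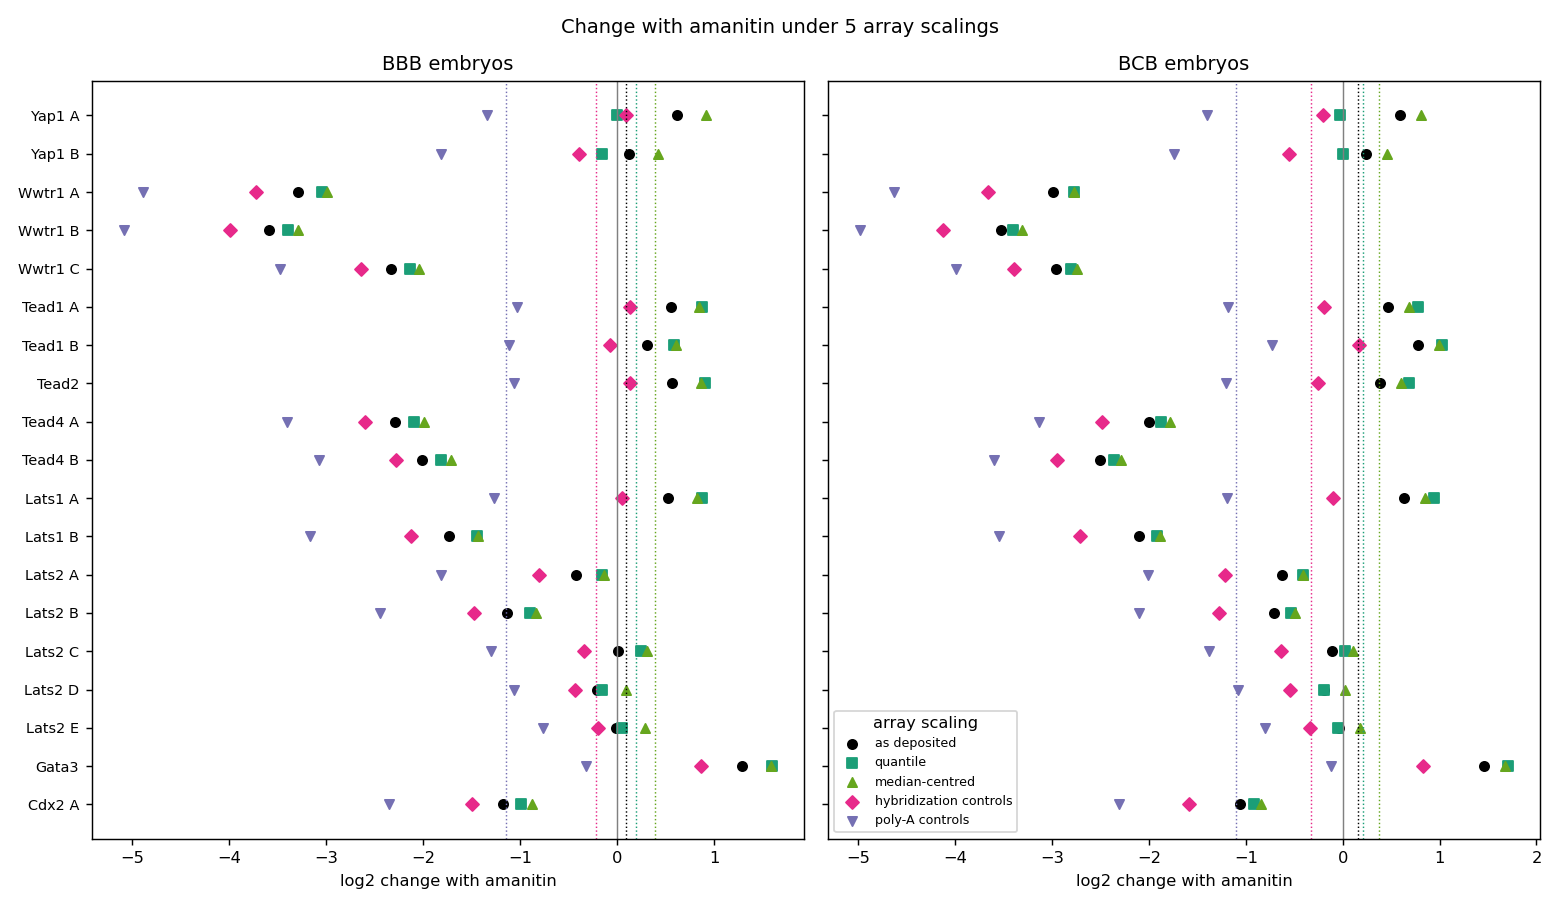
Log2 change with α-amanitin (horizontal axis) of the 19 tested probe sets in BBB (left) and BCB embryos (right) under 5 array scalings; dotted lines mark the median of all tested probe sets under each scaling. Wwtr1, Tead4, Lats1 B and Cdx2 lie left of every line of their own scaling and Gata3 right of it.

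The second check was the ratio of 2 probe sets on the same array, in which a single factor per array cancels; quantile normalization is no such factor. Of the pairs of members, 2 whose probe sets read at or above the 40th percentile on all 16 arrays are given. They were chosen after their values were seen, so the ratios are a description with no test, and no value was added before taking logs. The mean log2 ratio of Yap1 A to Wwtr1 A went from 3.65 ± 0.23 (SD, n = 4) to 8.0 ± 0.23 with amanitin in BBB and from 3.71 ± 0.13 to 7.67 ± 0.63 in BCB. For Lats1 A to Lats1 B the shift was 2.82 in BBB and 3.34 in BCB. In both pairs and both kinds the 4 treated arrays lay above the 4 untreated ones. These shifts show unequal change within a pair and not that either member stayed level.

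No member passed the test for a difference between BCB and BBB embryos, with or without amanitin. Comparing BCB with BBB asks whether a C3H maternal pronucleus in B6 ooplasm alters these transcripts. Of the 19 probe sets 0 were called in the untreated embryos by limma, where 0.613% of all tested probe sets were called, and 0 in the treated embryos, where 0.113% were. The values of the 2 kinds overlapped for all 19 in both comparisons. The share of all tested probe sets that overlapped was not counted, so the overlap is no result about the members. At an unadjusted p under 0.05, 1 probe set passed in each comparison. A share of 0.05 would pass that threshold without any difference, so neither is a call. The untreated probe set was Lats1 B, at 126 ± 27 in BBB and 174 ± 40.6 in BCB (SD, n = 4), a log2 difference of 0.42 with a 95% interval of 0.06 to 0.78 (limma adjusted p = 0.577). With amanitin it was Tead1 B, at 50.2 ± 12 in BBB and 76.5 ± 10.5 in BCB, a difference of 0.49 with an interval of 0.15 to 0.84 (adjusted p = 0.278).

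The precision of these comparisons differed between members. For Yap1 A the untreated difference was 0.02 with an interval of −0.13 to 0.16, and for Wwtr1 A −0.04 with an interval of −0.40 to 0.32. Gata3 differed by −0.25 (−0.58 to 0.08) and Cdx2 by 0.15 (−0.33 to 0.64). Tead4 B had a difference of 0.48 with an interval of −0.01 to 0.97, and its other probe set one of −0.08 (−0.49 to 0.33). Intervals this wide do not show that the kinds were alike. The effect of amanitin was compared between kinds by the interaction, which called 0 of 19 members against 0.257% of all tested probe sets. The 1 member with an unadjusted p under 0.05 was Wwtr1 C, with a difference of −0.62 (−1.22 to −0.03, limma adjusted p = 0.564). Again a share of 0.05 would pass that threshold without any difference, so this is no call.

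**Figure D4:**
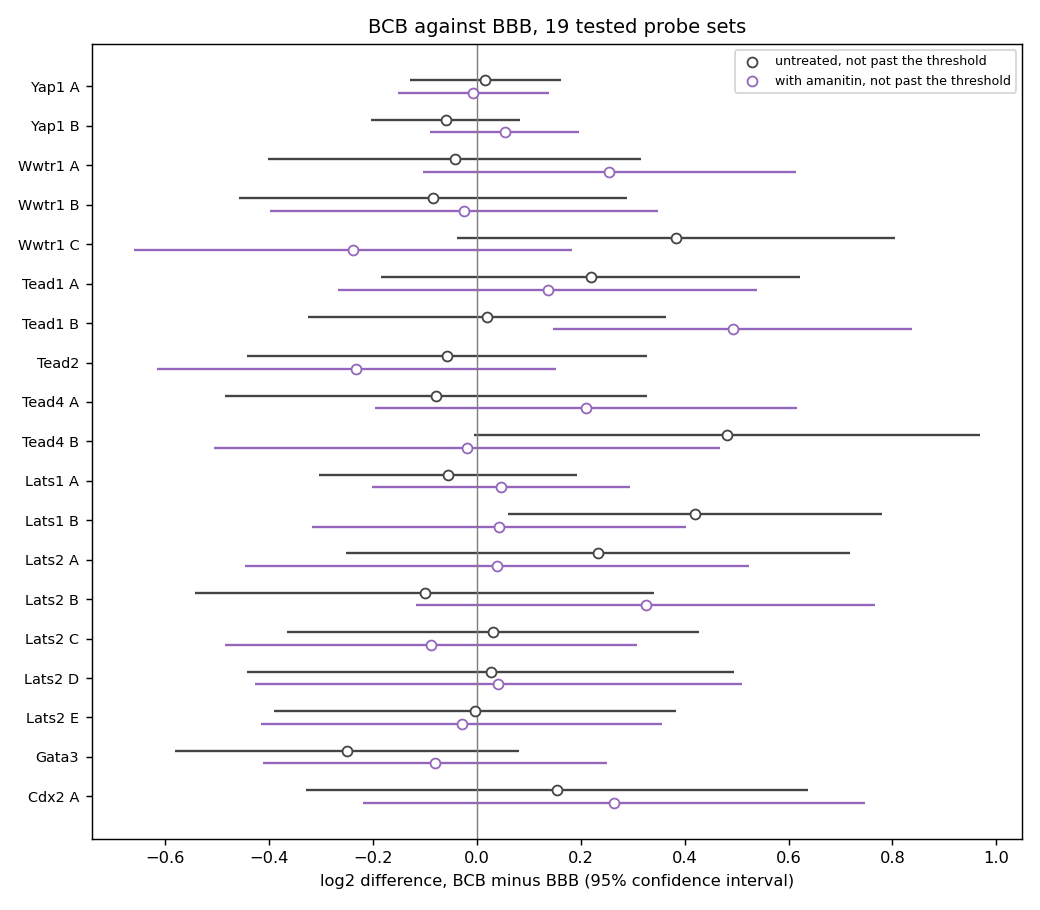
Log2 difference between the kinds (BCB minus BBB, horizontal axis) of the 19 tested probe sets in untreated embryos and with α-amanitin, with 95% confidence intervals; open points have an adjusted p of 0.05 or more. All 38 points are open, the farthest being Tead1 B with amanitin at 0.49.

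Other genes of the pathway were taken from 4 lists, and of 73 genes 65 were tested, each by its tested probe set of highest mean. In BBB embryos 24 rose and 25 fell by limma, where 37.1% of all 15274 genes rose and 33.1% fell, and in BCB embryos 23 rose and 23 fell, against 39.9% and 31.9%. These shares are near the background and are no result about the pathway as a group. Between the kinds, 0 of the 65 were called in untreated embryos, against 0.655% of all genes. All genes tested had a median change of 0.11 in BBB and 0.17 in BCB. With arrays scaled to the poly-A controls 0 of the 65 were called higher in either kind. Of all 31953 tested probe sets 228 in BBB and 211 in BCB were called higher under that scaling. Under the hybridization controls 19613 were called in BBB and 19200 in BCB, of which 6304 and 4532 rose. Under median centring 23751 and 23737 were called, of which 15715 and 15557 rose. The counts of each list below stand beside these values and the shares of all genes above. Shares of all genes were not counted under the rescalings, so these counts are no result about a list.

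Of the kinase cascade and its upstream regulators, 9 of 21 tested genes rose and 6 fell in each kind, with medians of −0.18 and −0.12. Scaled to the hybridization controls, 6 rose and 11 fell in BBB and 3 rose and 11 fell in BCB, and the medians were above 0 under quantile normalization (0.06 and 0.17) and median centring (0.11 and 0.09). They stayed below the medians of all tested probe sets, which were 0.20 and 0.21 under the former and 0.39 and 0.38 under the latter. The largest fall was that of Ajuba, a LIM protein that restrains LATS kinases, from 1497 ± 112 to 24.1 ± 12.9 in BBB (SD, n = 4; log2 change −5.28) and by −5.86 in BCB. Amot, the junctional scaffold that holds YAP outside the nucleus, fell from 295 ± 59.3 to 9.33 ± 6.9 in BBB (−3.64) and by −2.96 in BCB. Stk4, the kinase that phosphorylates LATS, fell by −0.97 and −1.40. The largest rise was that of Taok3, a kinase upstream of it, at 1.99 and 1.81. Nf2, the membrane-bound activator of LATS, rose by 0.85 and 0.65, Sav1, the scaffold of the upstream kinase, by 0.56 and 0.75, and Wwc2, a relative of the LATS activator KIBRA and the gene of highest mean, by 1.01 and 0.97. Of these 4, Taok3 in BCB and the other 3 in both kinds were below 0 when scaled to the poly-A controls, and Nf2 and Sav1 in BCB also when scaled to the hybridization controls (−0.14 and −0.0064).

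Of TEAD partners and known YAP-TEAD targets, 9 of 14 were tested; 3 rose and 3 fell in BBB, and 2 rose and 2 fell in BCB, with medians of 0.13 and 0.27. Under median centring 5 rose and 1 fell in BBB and 5 rose and 0 fell in BCB, and scaled to the hybridization controls 0 rose in either and 3 and 5 fell. Tead3, the remaining TEAD, rose by 0.42 and 0.54. Ccn1, a matricellular target of YAP, fell from 50.7 ± 8.2 to 25 ± 8.78 in BBB (−0.72) and by −0.50 in BCB. Ankrd1, another target, rose by 0.45 in BBB and was at 0.27 in BCB, where it did not pass, and Birc5, the inhibitor of apoptosis with the highest mean, rose by 0.42 and 0.31. Vgll4, which competes with YAP for TEAD, was at 0.13 and 0.36 and did not pass. Birc5 was at −0.10 and −0.16 under quantile normalization and Tead3 at −0.10 in BCB under the hybridization controls, and all of these that rose were below 0 under the poly-A controls. The 3 rises in BBB became 1 without untreated BBB array 1 or 2 or treated BBB array 1. In BCB the 2 rises became 4 without treated array 2, and the 2 falls became 1 without untreated array 2 or treated array 1 or 4.

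Of apical polarity and adhesion genes, 8 of 17 rose and 7 fell in each kind, with medians of 0.32 and 0.34. Scaled to the hybridization controls 6 rose and 8 fell in BBB and 3 rose and 8 fell in BCB, with medians of −0.19 and −0.33. All tested probe sets had medians of −0.22 and −0.33 under that scaling. Pard3, a scaffold of the apical complex, rose from 315 ± 40.5 to 1191 ± 157 in BBB (1.86) and by 1.78 in BCB. It was below 0 in both kinds under the poly-A controls. Ctnnb1, the β-catenin of junctions and Wnt signalling, fell from 2226 ± 236 to 292.5 ± 44.3 in BBB (−2.87) and by −2.67 in BCB.

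Of 18 other trophectoderm regulators and products, 4 rose and 9 fell in BBB and 4 rose and 8 fell in BCB, with medians of −0.37 and −0.33. Under median centring 7 rose and 8 fell in BBB and 6 rose and 8 fell in BCB, and scaled to the hybridization controls 3 rose and 12 fell in BBB and 1 rose and 12 fell in BCB. Klf5, a Krüppel-like factor needed for trophectoderm, fell from 1049 ± 107 to 39.4 ± 9.7 in BBB (−4.28) and by −4.00 in BCB. Eomes, a T-box factor of trophoblast stem cells, fell by −2.58 and −2.47, and Tfap2c, an AP-2 factor, by −1.08 and −1.06. Dab2, an endocytic adaptor and the member with the highest mean, rose by 1.61 and 1.38 and was at −0.34 and −0.60 under the poly-A controls. Of the keratins of the trophectoderm, Krt8 fell in BBB (−0.47, limma adjusted p = 0.0485), a call lost under quantile normalization (−0.12, adjusted p = 0.625), and did not pass in BCB (−0.45, adjusted p = 0.0597), and Krt18 was at −0.02 and −0.07 and passed in neither.

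**Figure D5:**
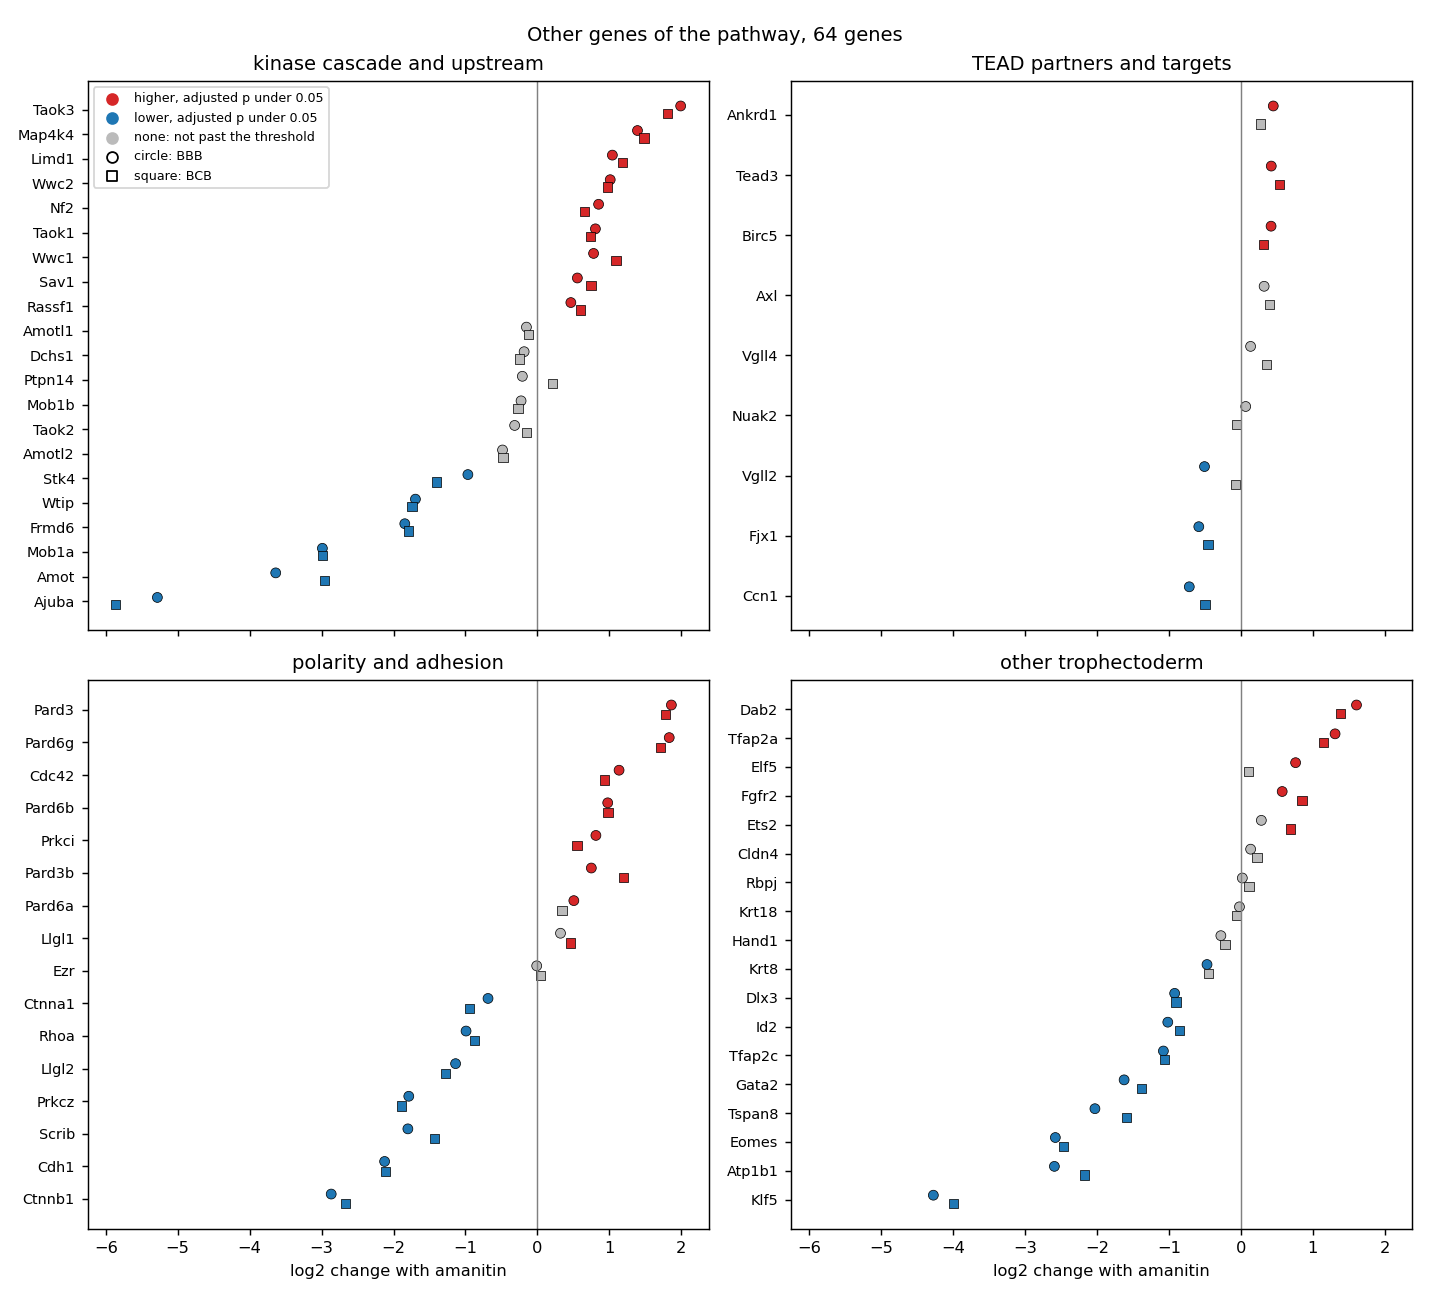
Log2 change with α-amanitin (horizontal axis) of 64 of the 65 tested genes of the 4 lists, circles for BBB and squares for BCB embryos; red and blue mark an adjusted p under 0.05, grey none. Ajuba lies lowest, at −5.28 and −5.86, and Taok3 highest in BBB, at 1.99.

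The genes whose profiles over the 16 arrays were most like those of the members were found from the root mean square difference between profiles, each centred on its own mean log2 value. For Yap1 these were Atp2a2 (0.044) and Khdc1b (0.050), and for Lats1 A Jag1 (0.096) and Gpr162 (0.10). Gata3 was closest to Clybl (0.14) and Clvs2 (0.15), Wwtr1 to Gtf3c4 (0.20) and Eif3f (0.22), and Tead4 to Exosc4 (0.20) and Nosip (0.21). Tead1 was closest to Rab9b (0.17) and Tafa2 (0.19), Tead2 to Gstm2 (0.19) and Zfp873 (0.20), Lats2 A to Chid1 (0.24) and Ptpn23 (0.25), and Cdx2 to Chchd1 (0.25) and Atp12a (0.26). The closest profiles of Yap1 differed least, and those of Cdx2 most, among the 9 members. Each member was read here from its tested probe set of highest mean alone. The measure includes the spread between arrays, and the SE of the amanitin change was 0.07 for Yap1 A and 0.23 for Cdx2 A. This order is therefore no ranking of how alike the regulation of the genes is.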

How the data were processed

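Per the labels, RNA from whole two-cell embryos was prepared with Picopure reagents, and an ENZO kit added the biotin label. The authors deposited 1 linear intensity per probe set and array; the mean without the highest and lowest 2% of probe sets is 150.0 on every array, as a scaling per array to a common trimmed mean would give. The software, scaling method and background treatment were not given in the sources used here. The number of arrays limits the precision.

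Probe sets were named from the platform annotation: 34958 have 1 symbol and 932 several. Intensities were taken as log2(value + 16), and a probe set was tested if 4 or more of the 16 arrays had it at or above their own 40th percentile. One linear model with a mean per group was fitted to all 31953 tested probe sets (limma 3.58.1, R 4.3.3, empirical Bayes with an intensity trend), with 5 contrasts and Benjamini-Hochberg adjustment over all of them. A gene of a list was read from its tested probe set of highest mean. The fit was tested on simulated data. Alternatives were quantile normalization, median centring, scaling to the mean of the hybridization or the poly-A control probe sets, pseudocounts of 1 and 64, no filter or the 60th percentile, a replicate block, a fit restricted to the groups in the contrast, no trend, array weights, leaving out BBB arrays 3 and 4, each array left out in turn and, for the lists, averaging the probe sets of each gene. The members and lists were chosen with earlier results of these data known. All member probe sets are described; of each list the text names the called genes with the largest rise and fall, the gene of highest mean (1 is not reported here) and a fixed set of pathway genes (Tead3, Vgll4, Amot, Nf2, Stk4, Sav1, Eomes, Tfap2c, Krt8, Krt18 and Ccn1). Promoter windows were taken from RefSeq (GRCm38.p6).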

Additional observations from a re-analysis of the deposited data

Results flagged for a closer look

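Of 76 groups of 4 arrays checked for a single array far from the other 3, 3 were picked out, and chance picks about 1 in 20. Lats1 A read 259 on treated BCB array 1, against 214 to 218 on the other 3. Wwtr1 C read 13.8 on treated BCB array 4, against 0.7 to 2.7. Tead4 B read 11.6 on treated BCB array 2, against 4.3 to 5.2. The last 2 are at or near the level of the 40th percentile of those arrays, 11.7 to 14.1.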

How the results depend on the processing

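Over 29 alternatives, the number of members called in either amanitin comparison stayed within 1.5 times the reported one, and with each array left out in turn it ranged from 12 to 14 (BBB) and from 13 to 15 (BCB). The split by direction did not: scaled to the hybridization controls 1 rose in BBB and 1 in BCB. Scaled to the poly-A controls 0 rose and 18 fell in each. Of all 31953 tested probe sets, 6304 and 4532 rose in BBB and BCB under the former, and 228 and 211 under the latter. Called changes whose sign reversed under the poly-A controls were, in BBB, Lats1 A (−1.27), Tead1 A (−1.04), Yap1 A (−1.34), Tead2 (−1.06) and Gata3 (−0.32). In BCB they were Yap1 B (−1.74) and A (−1.40), Tead1 B (−0.73) and A (−1.18), Lats1 A (−1.19) and Gata3 (−0.12). All of these passed with the new sign except Gata3 (limma adjusted p = 0.145 in BBB and 0.594 in BCB). Under the hybridization controls the BCB changes of Yap1 B (−0.56) and A (−0.21), Lats1 A (−0.10) and Tead1 A (−0.19) changed sign. Of these Yap1 B passed (limma adjusted p = 0.000143) and the others did not (0.0796, 0.562 and 0.439). Under quantile normalization the changes of Yap1 A were below 0 (−0.0032 in BBB, −0.027 in BCB) and did not pass (limma adjusted p = 0.949 and 0.575). Yap1 A is near the top of every array, where quantile normalization leaves little room to rise, so these values do not test its rise. A loss of rank could have shown. The cause of the other sign changes was not tested. Of the members' amanitin changes under these alternatives, 1037 either passed in the same direction as reported or passed in neither. Another 20 lost the threshold with the same sign, and 18 gained it in the same direction. A further 17 that had passed changed sign, whether or not they passed again. The last 6 had not passed and did so with the opposite sign. No member was called between kinds or in the interaction under any alternative. With the replicate block 13 members were called in BBB and 15 in BCB, as without it; numbers do not pair the arrays (correlations of same-numbered deviations −0.087 to 0.107), and of the list counts the block moved 4, each by 1 gene. The filter bears on 2 members left untested, and signal near or below the 40th percentile limits Tead4, Wwtr1 C and the dimmer Lats2 probe sets.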
